A study of Drosophila melanogaster with 23 samples.

Results

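Ovaries with germline RNAi against 3 regulators of gene expression were compared with ovaries with germline RNAi against bam. The 6 libraries on one side carry the labels MSL3 RNAi, NC2b RNAi and Set2 RNAi, with 2 libraries each, and the 2 libraries on the other side carry the label bam RNAi. They were taken by these labels alone and make up 8 of the 23 libraries of the series, all of poly(A)-selected RNA from Drosophila melanogaster ovaries taken between day 1 and day 5 after eclosion. The knockdown females carried the RNAi transgene with UAS-Dcr2 and nosGAL4, a driver active in germ cells. The bam RNAi females carried the RNAi transgene with nosGAL4, and their label names no UAS-Dcr2. Effects of the targeted gene, of UAS-Dcr2 and of the RNAi against bam therefore cannot be told apart between the sides, and neither side has a heat-shock transgene. A second pair of bam RNAi libraries, from females that also carried an S19b mutation (RpS19b) with nosGAL4, served only as an alternative control and is called the RpS19b mutant pair. Whole ovaries with UAS-Dcr2, nosGAL4 and no RNAi, 1 library, are given last as a point of orientation. Nothing in the labels tells whether both libraries of a pair had their own dissection, so p-values measure only the spread between these libraries.

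In the fly ovary a germline stem cell divides to give a daughter that turns on bam, and the protein of bam with its partner bgcn starts the divisions that build an interconnected cyst. Germ cells without bam keep dividing as single undifferentiated cells, and such ovaries make no egg chambers. In normal cysts the oocyte enters meiosis and arrests, the nurse cells load it with maternal mRNAs, and the surrounding follicle cells lay down yolk proteins, the vitelline membrane and the chorion. Set2 methylates lysine 36 of histone H3, msl-3 encodes a chromodomain protein of the MSL complex that binds this mark, and NC2beta encodes a subunit of NC2, a regulator of basal transcription. The bam RNAi libraries thus stand for ovaries full of undifferentiated germ cells, and the question the comparison addresses is how far ovaries of the 3 knockdowns differ from that state and whether they do so alike.

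The 8 libraries held between 9559023 counts (bam RNAi 1) and 34828261 counts (library 1 labelled MSL3 RNAi). Log2 levels correlated at 0.96 to 0.979 across genes between libraries of a group, at 0.911 to 0.974 between different knockdowns and at 0.824 to 0.893 between a knockdown and bam RNAi; genes are not independent replicates. The first principal component held 55.7% of the variance and put the 6 knockdown libraries on one side and the 2 bam RNAi libraries on the other. The second held 20.9% and had library 2 labelled MSL3 RNAi at one end and the Set2 RNAi libraries at the other. Levels below are CPM, counts scaled to the library total, and fold changes are log2 values from an edgeR quasi-likelihood fit with Benjamini-Hochberg adjustment over all 9932 genes tested. Unless a single knockdown is named, a fold change is the mean of the 3 knockdowns minus bam RNAi.

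The targeted genes were examined first. Set2 was at 62.2 and 54.3 CPM in the Set2 RNAi libraries, against 144 and 121 CPM in bam RNAi, which gave a log2 fold change of -1.15 (SE 0.22, edgeR adjusted p = 0.0043). It was higher than bam RNAi in the other knockdowns, at 398 and 278 CPM in both libraries labelled MSL3 RNAi and 278 and 263 CPM in NC2b RNAi, and whole ovaries had 240 CPM. NC2beta, on 2L at 15007813 to 15008538 (dm6), was at 4.69 and 5.12 CPM in NC2b RNAi, against 18.7 and 25.5 CPM in bam RNAi (log2 fold change -2.03, SE 0.34, edgeR adjusted p = 0.0025). It was also lower in the other knockdowns, at 7.78 and 6.87 CPM in both libraries labelled MSL3 RNAi and 7.1 and 11.3 CPM in Set2 RNAi, and whole ovaries had 6.25 CPM. NC2beta overlaps a gene on the opposite strand, and the strand setting of the counting is not given in the sources used here.

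The level of msl-3 was not called as lower in the libraries that carry its label. It was at 65.6 and 39.1 CPM in both libraries labelled MSL3 RNAi, against 45.5 and 53.6 CPM in bam RNAi, with a log2 fold change of 0.18 (SE 0.24, edgeR adjusted p = 0.56). The bam RNAi values lay between the values of that pair. Whole ovaries had 24.5 CPM, and msl-3 shares its place on 3L (7123213 to 7125533, dm6) with an overlapping gene. The mean log2 fold change of msl-3 over the 3 knockdowns was 0.30. These counts show no lowering of msl-3 against bam RNAi, and whether the RNAi acted in germ cells cannot be read from them. The pair is therefore called the libraries labelled MSL3 RNAi throughout, and directions drawn from it are those of these libraries.

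The gene targeted in the control was low in the control. bam was at 52 and 30 CPM in both libraries labelled MSL3 RNAi, 48.1 and 43 CPM in NC2b RNAi and 70 and 59 CPM in Set2 RNAi, against 2.09 and 6.17 CPM in bam RNAi. All 6 knockdown libraries lay above both bam RNAi libraries (log2 fold change 3.62, SE 0.40, edgeR adjusted p = 0.00019), and whole ovaries had 21.1 CPM. Its partner bgcn went the other way, at 9.39 and 8.91 CPM in both libraries labelled MSL3 RNAi, 2.83 and 2.67 CPM in NC2b RNAi and 4.52 and 4.15 CPM in Set2 RNAi, against 79.7 and 105 CPM in bam RNAi (log2 fold change -4.18, SE 0.16). RpS19b, a germline paralog of a small-subunit ribosomal protein, was at 1.26 to 5.26 CPM over the 6 knockdown libraries, against 189 and 249 CPM in bam RNAi (log2 fold change -6.06, SE 0.28). Whole ovaries had 1.98 CPM of bgcn and 4.9 CPM of RpS19b, close to or within the knockdown values. In ovaries measured whole, fewer cells of a type and less RNA per cell cannot be told apart, here or in any value below.

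**Figure D1:**
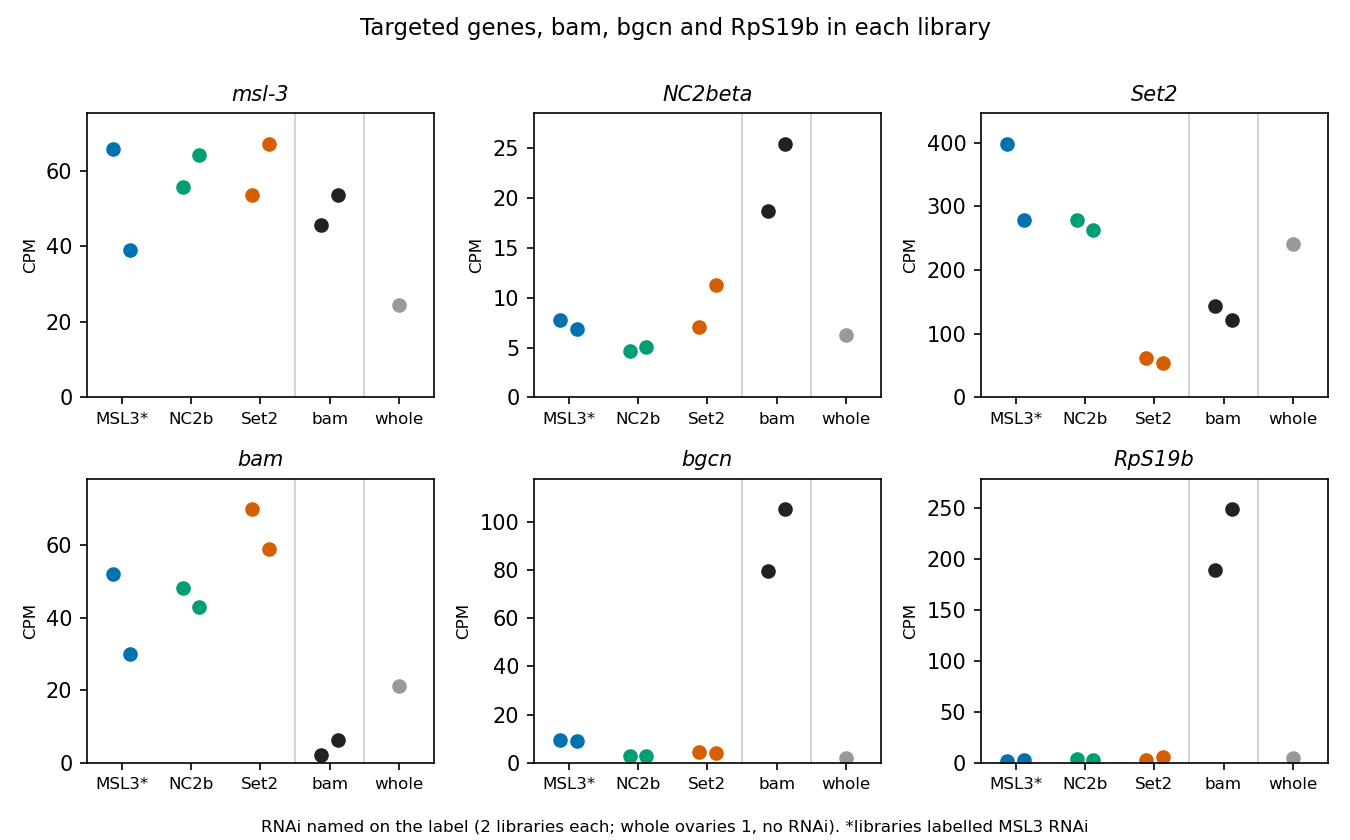
CPM (linear axes) of the 3 targeted genes, of bam, bgcn and RpS19b in each library, with the knockdowns left of bam RNAi and whole ovaries. Points are single libraries. Set2 is lowest in Set2 RNAi at 54.3 and 62.2 CPM, msl-3 in the libraries labelled MSL3 RNAi spans the bam RNAi values, and bgcn and RpS19b are high only in bam RNAi among the 9 libraries drawn.

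A gene was said to agree where it passed an adjusted p of 0.05 with the same sign in each of the 3 single comparisons, which share the bam RNAi libraries. Of 9932 genes, 1464 agreed as higher in the knockdowns (14.7%) and 918 agreed as lower (9.24%), 24% in all. Each count has the single comparisons behind it, in which 2466 genes (24.8%) were higher and 1984 (20%) lower in the libraries labelled MSL3 RNAi, 2110 (21.2%) and 1609 (16.2%) in NC2b RNAi, and 2010 (20.2%) and 1599 (16.1%) in Set2 RNAi. A further 1263 genes passed in exactly 2 comparisons with the same sign, 1981 in exactly 1 and 4249 in none, while 57 passed with opposite signs. Among the agreeing genes 831 (8.37% of all tested) were at least 2-fold higher and 604 (6.08%) at least 2-fold lower in each knockdown, and 185 (1.86%) and 221 (2.23%) passed 8-fold. With genes ranked by mean level and cut into 4 equal bins of 2483, 11.8% of the lowest bin agreed as lower and 2.22% as higher, and 8.3% and 22.5% of the highest bin. The count of genes that agreed as lower depended on single libraries. It was 389 and 402 without Set2 RNAi 1 and 2, 383 and 439 without NC2b RNAi 1 and 2, and 403 and 586 without bam RNAi 1 and 2. A fit of all 23 libraries at once, with a common dispersion of 0.399 in place of 0.0842, left 4 genes that agreed as higher and 0 as lower. Of the 104 genes named in the text that passed in the mean comparison, 64 lost their call in that fit.

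**Figure D2:**
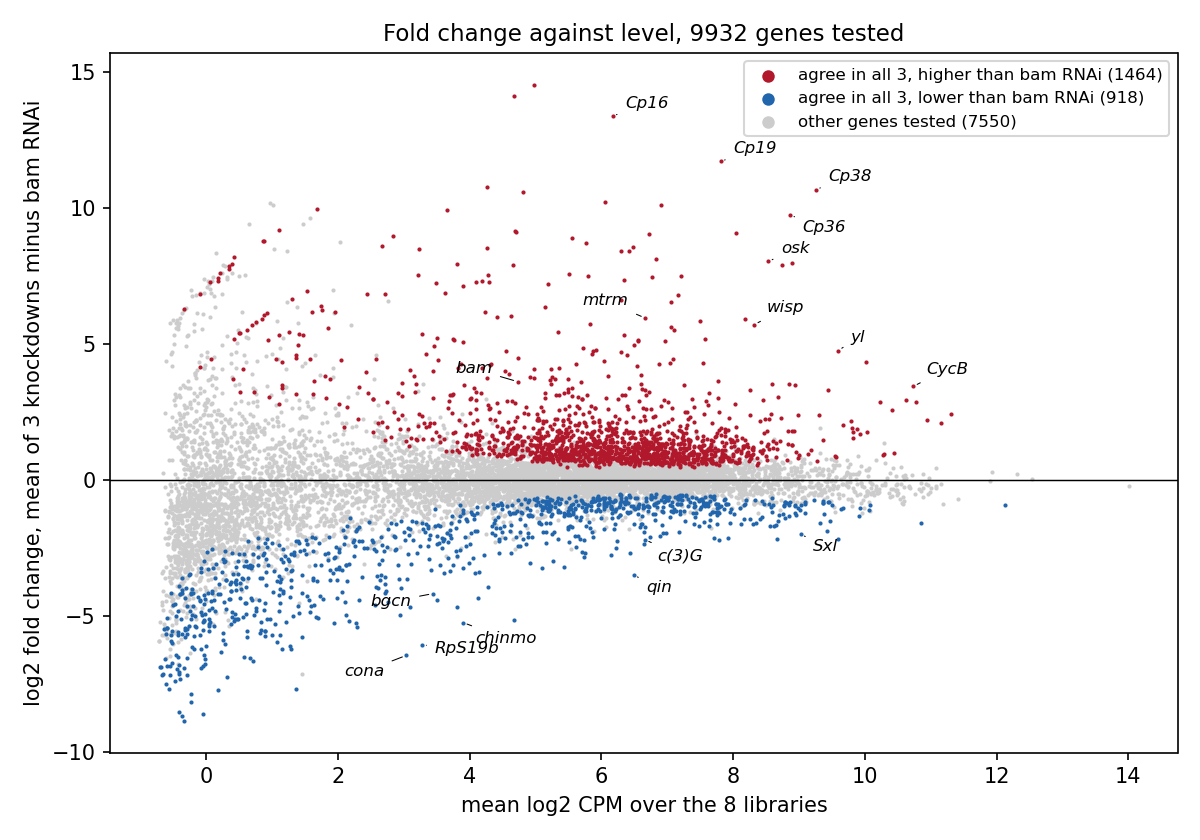
Fitted log2 fold change of the mean of 3 knockdowns minus bam RNAi (vertical axis) against mean log2 CPM over the 8 libraries (horizontal axis) for 9932 genes. Red points are the 1464 genes that agreed as higher, blue points the 918 that agreed as lower, and for genes at or near 0 in one group the fitted value depends on the prior count and is no bound. The chorion genes lie at the top right, while bgcn, RpS19b, chinmo and cona lie at the bottom.

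Over the major chromosome arms the agreeing share was similar, at 14.2% to 16.9% higher and 7.89% to 10.6% lower, the X among them with 14.9% higher and 10.6% lower. The small chromosome 4 stood apart in these counts, with 4 of 89 tested genes (4.49%) higher and 19 (21.3%) lower, and a median log2 fold change of -0.62 against 0.003 over all genes. No test was made of this difference. The whole ovary library lay within the range of the 6 knockdown libraries for 51.2% of the genes that agreed as lower, for 19.1% of those that agreed as higher and for 40.4% of all genes tested. For 1126 of the 1464 higher genes it lay below all 6 knockdown libraries, as it did for 4710 of all 9932 genes tested.

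Among the gene lists, the eggshell list had the highest median of the fold changes. All 24 tested members of this list of vitelline membrane and chorion genes agreed as higher, with a median log2 fold change of 6.46, and 1 further member, Pxd, was not tested. Cp36, a chorion protein gene on X at 8479319 to 8480523, was at 2499 and 2452 CPM in both libraries labelled MSL3 RNAi, 3544 and 3021 CPM in NC2b RNAi and 1819 and 1572 CPM in Set2 RNAi, against 2.72 and 3.22 CPM in bam RNAi. Its log2 fold change was 9.74 (SE 0.29, edgeR adjusted p = 8.6e-07), and whole ovaries had 226 CPM, below all 6 knockdown libraries. Cp38, its neighbour at 8481837 to 8483311, was at 2222 to 5564 CPM in the knockdowns, against 1.46 and 3.17 CPM in bam RNAi (log2 fold change 10.69, SE 0.39). Cp7Fa, another member of this X cluster, was at 198 to 400 CPM, against 1.67 and 1.87 CPM (log2 fold change 7.34, SE 0.28). All 3 genes overlap a gene on the opposite strand.

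Chorion genes on 3L were higher as well. Cp19, at 8729865 to 8730604, was at 744 to 2329 CPM in the knockdown libraries, against 0.628 and 0.363 CPM in bam RNAi (log2 fold change 11.72, SE 0.74). Cp16, at 8731944 to 8732599, was at 170 to 677 CPM, against 0 and 0.0519 CPM. Since bam RNAi had 1 count of Cp16 in both libraries together, its change is given as the ratio of pooled CPM, 12765 with an exact 95% interval of 2291 to 504180 that covers counting error only. yellow-g and yellow-g2, members of the Yellow family that take part in hardening the eggshell, were at 209 to 503 and 198 to 465 CPM in the knockdowns. In bam RNAi yellow-g had 0 and 0.415 CPM and yellow-g2 had 1.15 and 0.778 CPM.

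Vitelline membrane genes are switched on in follicle cells before the chorion genes, and one of them was already abundant in bam RNAi. Vm26Aa was at 1925 and 1070 CPM in both libraries labelled MSL3 RNAi, 3989 and 3188 CPM in NC2b RNAi and 2296 and 1316 CPM in Set2 RNAi, against 389 and 383 CPM in bam RNAi. Its log2 fold change of 2.56 (SE 0.34) was among the smaller ones of the list. Fcp3C, another gene of the vitelline membrane stage, was at 33.8 to 223 CPM in the knockdowns, against 2.09 and 0.83 CPM (log2 fold change 6.35, SE 0.71). The summed level of the list was 15408 to 39728 CPM in the 6 knockdown libraries, against 2244 and 1972 CPM in bam RNAi and 9141 CPM in whole ovaries. The count of agreeing members was 22 to 24 when any 1 library was left out. It was 13 when the bam RNAi libraries with an RpS19b mutation served as control, and with that pair Cp36, Cp38, Cp19, Cp7Fa and Vm26Aa kept their direction but not their call.

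Genes outside the eggshell list were among the largest rises. Mur11Da was at 178 and 83.7 CPM in both libraries labelled MSL3 RNAi, 190 and 257 CPM in NC2b RNAi and 55.1 and 92.3 CPM in Set2 RNAi, and CG4066 at 67 to 162 CPM over the same 6 libraries. Both had 0 counts in both bam RNAi libraries, which makes Mur11Da at least 1407-fold and CG4066 at least 915-fold higher, against a limit of 3 counts over the group (0.104 CPM). CG15571 was at 44 to 105 CPM, against 0 and 0.0519 CPM in bam RNAi, a ratio of 1918 (exact 95% interval 344 to 75758). CG31928 was at 58.4 to 187 CPM, against 0 and 0.104 CPM, a ratio of 1708 (473 to 14104). A smaller rise, not among the largest, was that of Ilp8, a relaxin-like peptide made by follicle cells of mature eggs. Ilp8 was at 60.5 and 49.5 CPM in both libraries labelled MSL3 RNAi, 32 and 29.4 CPM in NC2b RNAi and 31.5 and 39.1 CPM in Set2 RNAi. In bam RNAi it was at 2.82 and 1.66 CPM (log2 fold change 4.26, SE 0.29). Mur11Da, CG4066 and CG15571 kept their direction but not their call with the RpS19b mutant pair as control.

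Most of the maternal transcripts tested were higher in the knockdowns. Of 32 tested members of the list of oocyte patterning and maternal mRNAs, 21 agreed as higher (65.6%) and 0 as lower. Over all genes these shares were 14.7% and 9.24%. The median log2 fold change of the list was 1.74, and 8 members did not pass in the mean comparison in either direction. osk, whose localised mRNA sets up the posterior pole and the germ plasm, was at 1566 and 902 CPM in both libraries labelled MSL3 RNAi, 1415 and 1169 CPM in NC2b RNAi and 2190 and 1705 CPM in Set2 RNAi, against 6.07 and 5.81 CPM in bam RNAi. Its log2 fold change was 8.04 (SE 0.38, edgeR adjusted p = 3.5e-06), and whole ovaries had 1683 CPM, within the knockdown range. wisp, the cytoplasmic poly(A) polymerase of late oogenesis, was at 732 to 1194 CPM, against 18.1 and 16.3 CPM (log2 fold change 5.72, SE 0.28). alphaTub67C, the maternal alpha-tubulin, was at 353 to 535 CPM, against 11.8 and 14.8 CPM (5.19, SE 0.24). swa, which is needed to localise bcd mRNA, was at 232 to 344 CPM, against 13 and 15.3 CPM (4.44, SE 0.21). For each of these 4 genes the 6 knockdown libraries were well apart from the bam RNAi pair, and the count for the list stayed between 19 and 23 when any 1 library was left out.

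A member of the list that did not agree was png, a kinase subunit that governs translation at egg activation; it was singled out after its values were seen. It was at 43.6 and 31.8 CPM in both libraries labelled MSL3 RNAi and 40.2 and 31.6 CPM in NC2b RNAi, but at 6.84 and 7.33 CPM in Set2 RNAi, against 4.81 and 3.63 CPM in bam RNAi. The Set2 RNAi values were thus above, but near, those of bam RNAi.

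Of 25 tested members of the list of female meiotic divisions and egg activation 13 agreed as higher (52%) and 0 as lower. Over all genes these shares were 14.7% and 9.24%. The median of the list was 0.76, and 12 members did not agree. The list shares 5 genes with the maternal one, alphaTub67C, gnu, plu, png and wisp, so the counts of both are not independent. mtrm, an inhibitor of Polo kinase in prophase oocytes, was at 226 to 343 CPM in the knockdowns, against 3.45 and 5.86 CPM in bam RNAi, and whole ovaries had 133 CPM. Its log2 fold changes were 6.00, 5.94 and 5.94 in the libraries labelled MSL3 RNAi, in NC2b RNAi and in Set2 RNAi. gwl, the Greatwall kinase, was at 306 to 515 CPM, against 65.7 and 62.7 CPM (log2 fold change 2.80, SE 0.20). Of 37 tested cell cycle and DNA replication genes 16 agreed as higher (43.2%) and 1 as lower (2.7%), and 20 did not agree (median 0.60). CycB, a mitotic cyclin stored in the egg, was at 2401 to 3470 CPM, against 267 and 334 CPM in bam RNAi (log2 fold change 3.45, SE 0.23). CycB3, which acts in meiotic anaphase, was at 275 to 553 CPM, against 77.4 and 80 CPM, and stg, the Cdc25 phosphatase, at 480 to 696 CPM, against 135 and 108 CPM. E2f2, the repressive E2F, was at 95.4 to 146 CPM, against 33.6 and 41.7 CPM. The member that agreed as lower was aurB, the kinase of the chromosomal passenger complex, at 27.6 to 39.3 CPM, against 51.3 and 64.1 CPM (log2 fold change -0.72, SE 0.15). It no longer agreed when any single library was left out, except library 1 labelled MSL3 RNAi.

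Of 12 tested members of the list of yolk proteins and yolk uptake 5 agreed as higher (41.7%, against 14.7% over all genes) and 0 as lower. The median log2 fold change was 1.28. yl, the receptor by which the oocyte takes up yolk, was at 2150 and 1234 CPM in both libraries labelled MSL3 RNAi, 2117 and 1623 CPM in NC2b RNAi and 1970 and 1528 CPM in Set2 RNAi, against 55.2 and 84.2 CPM in bam RNAi (log2 fold change 4.77, SE 0.35). LpR1 and LpR2, which encode lipophorin receptors, had log2 fold changes of 2.19 (SE 0.23) and 1.86 (SE 0.18). Yp3, a yolk protein gene of follicle cells and fat body, was at 1091 to 3321 CPM, against 235 and 343 CPM (log2 fold change 2.88, SE 0.30). Yp1 was at 980 and 1415 CPM in both libraries labelled MSL3 RNAi, 2663 and 2391 CPM in NC2b RNAi and 1854 and 869 CPM in Set2 RNAi, against 794 and 529 CPM in bam RNAi. Although all 6 knockdown libraries lay above both bam RNAi libraries, Yp1 did not agree in all 3 knockdowns. Its mean log2 fold change of 1.37 (SE 0.35, edgeR adjusted p = 0.012) lost its call without bam RNAi 2 and was -0.14 against the RpS19b mutant pair.

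The piRNA pathway silences transposons in germ cells with small RNAs bound to Piwi proteins. Of its 29 tested members 14 agreed as lower (48.3%) and 2 as higher (6.9%), against 9.24% and 14.7% over all genes. The median log2 fold change was -0.75. qin, a Tudor-domain protein of the ping-pong amplification step, was at 49.6 and 33.6 CPM in both libraries labelled MSL3 RNAi, 44.6 and 49.2 CPM in NC2b RNAi and 60.2 and 54.7 CPM in Set2 RNAi, against 522 and 641 CPM in bam RNAi. Its log2 fold change was -3.50 (SE 0.15, edgeR adjusted p = 2.7e-06), and whole ovaries had 99.5 CPM. piwi itself, the nuclear Argonaute of the pathway, was at 201 to 354 CPM, against 812 and 1110 CPM (-1.69, SE 0.15). armi, a helicase of piRNA biogenesis, averaged 294 ± 56.5 CPM (SD, n = 6), against 916 and 1072 CPM in bam RNAi (-1.67, SE 0.15), and shu, a co-chaperone for loading piRNAs, at 53.3 to 91.9 CPM, against 239 and 284 CPM (-1.73, SE 0.14). The rises were nxf2, which acts with Piwi in transcriptional silencing, at 69.2 to 120 CPM, against 32.6 and 57.3 CPM, and del, which licenses piRNA clusters, at 212 to 311 CPM, against 144 and 160 CPM. Fewer members agreed as lower when single libraries were left out, 8 without Set2 RNAi 1, without Set2 RNAi 2 or without bam RNAi 2, and 9 without NC2b RNAi 1. The call of del in the mean comparison was lost without bam RNAi 1.

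**Figure D3:**
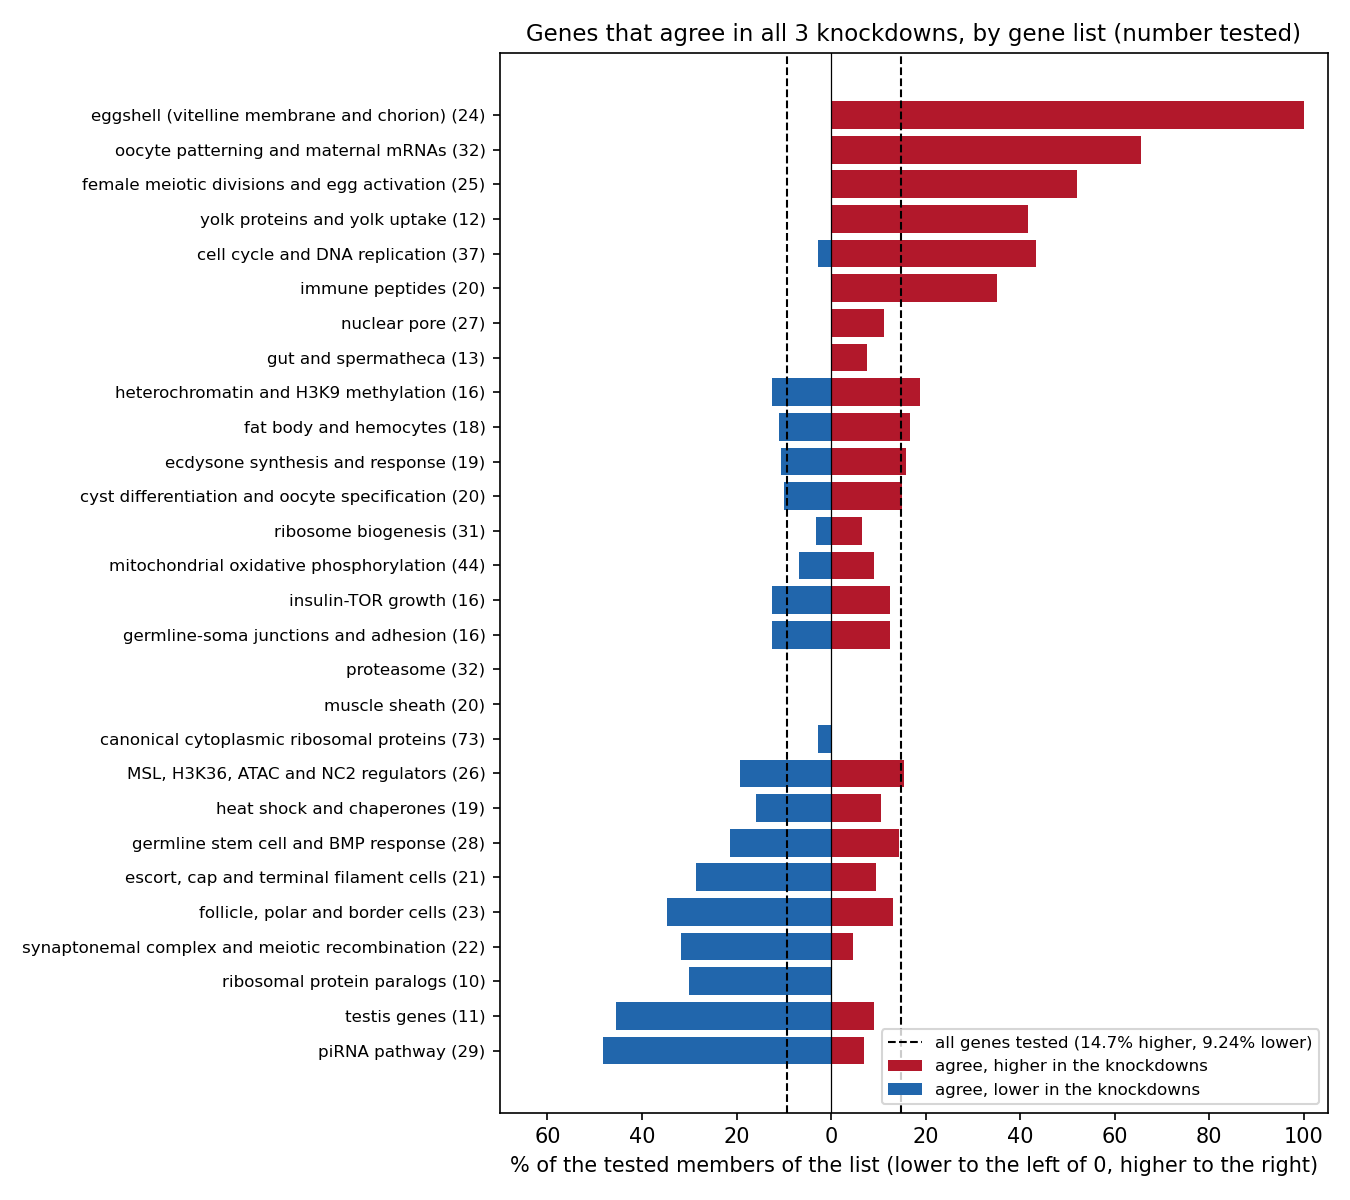
Share of the tested members of each gene list that agreed in all 3 knockdowns, lower to the left of 0 and higher to the right, in percent, with the number tested in brackets. Dashed lines mark 14.7% higher and 9.24% lower over all genes tested. The eggshell list stands at 24 of 24 higher, and the piRNA list has the longest bar to the left, 14 of 29.

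In the list of the synaptonemal complex and meiotic recombination, 7 of 22 tested members agreed as lower (31.8%) and 1 as higher (4.55%). Over all genes these shares were 9.24% and 14.7%. The median log2 fold change of the list was -0.48, and 14 members did not agree. cona, a protein of the central element of the synaptonemal complex, was at 0.431 and 2.74 CPM in both libraries labelled MSL3 RNAi, 3.04 and 4.83 CPM in NC2b RNAi and 1.42 and 3.23 CPM in Set2 RNAi, against 202 and 252 CPM in bam RNAi. Its log2 fold change of -6.45 (SE 0.45, edgeR adjusted p = 1.8e-05) was the largest fall among genes named by size, and whole ovaries had 3.21 CPM. sunn and ord, which hold sister chromatids together in meiosis, were at 2.38 to 9.55 CPM and 5.05 to 12.4 CPM in the knockdowns, against 95.7 and 128 CPM and 151 and 188 CPM in bam RNAi. Their log2 fold changes were -4.42 (SE 0.23) and -4.33 (SE 0.23). The exception with a rise was Blm, the helicase that resolves recombination intermediates, at 163 ± 27.1 CPM (SD, n = 6), against 89 and 78.6 CPM in bam RNAi (log2 fold change 1.04, SE 0.17). Without Set2 RNAi 1 the count of higher members was 0, and without library 2 labelled MSL3 RNAi it was 2.

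c(3)G, the transverse filament of the synaptonemal complex, differed among the knockdowns. It was at 37.4 and 33.4 CPM in both libraries labelled MSL3 RNAi, 63.6 and 71.5 CPM in NC2b RNAi and 135 and 127 CPM in Set2 RNAi, against 312 and 349 CPM in bam RNAi and 187 CPM in whole ovaries. No knockdown overlapped another, and the log2 fold changes were -3.12, -2.15 and -1.30 in that order. The F test among the 3 knockdowns gave an edgeR adjusted p of 0.0049.

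Of 28 tested genes of the stem cell and BMP response list 6 agreed as lower (21.4%, against 9.24% over all genes). Another 4 agreed as higher (14.3%, near the 14.7% over all genes). The lower ones beside bgcn and piwi were Sxl, snf, dally and stwl. Sxl, the sex-determination switch that also promotes exit from the stem cell state in the female germline, was at 336 to 386 CPM in all 6 knockdown libraries, against 1662 and 1412 CPM in bam RNAi (log2 fold change -1.99, SE 0.14, edgeR adjusted p = 1.9e-05). Its 3 single log2 fold changes were -1.98, -2.0 and -2.0. snf, a splicing factor needed for Sxl, was at 60.6 to 90.2 CPM, against 210 and 161 CPM, and with the RpS19b mutant pair as control its log2 fold change of -0.36 was not called. dally, a glypican that stabilises the BMP ligand near the niche, was at 55.1 to 110 CPM, against 268 and 237 CPM. The 4 higher ones were bam, Smurf, brat and twin. Smurf, a ubiquitin ligase that damps BMP signalling, averaged 229 ± 33.3 CPM in the knockdowns (SD, n = 6), against 104 and 96.7 CPM in bam RNAi (log2 fold change 1.27, SE 0.16). Since bam is the target of the RNAi in the control, its higher level was set by the design, and the other 3 are the higher members beside it. The median of the list was 0.087. Without Set2 RNAi 1, 2 members agreed as higher.

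In the list of cyst differentiation and oocyte specification 3 of 20 tested members agreed as higher and 2 as lower, close to the shares over all genes. The higher ones were otu, bru1 and egl. otu, a deubiquitinase needed for cyst growth, was at 517 to 920 CPM, against 157 and 154 CPM (log2 fold change 2.40, SE 0.25). bru1, a translational repressor of osk mRNA, was at 758 to 1440 CPM, against 338 and 418 CPM (1.78, SE 0.23), and egl, the cargo adaptor of mRNA transport into the oocyte, at 181 to 262 CPM, against 83.3 and 77.7 CPM (1.45, SE 0.15). orb, the CPEB protein that accumulates in the oocyte, did not agree. It was at 557 and 329 CPM in both libraries labelled MSL3 RNAi, 567 and 513 CPM in NC2b RNAi and 655 and 498 CPM in Set2 RNAi, against 280 and 298 CPM in bam RNAi, and its mean log2 fold change of 0.93 (SE 0.23, edgeR adjusted p = 0.009) lost its call without either bam RNAi library. The lower members were hts, the adducin of the spectrosome and fusome, at 271 to 490 CPM, against 897 and 803 CPM (-1.28, SE 0.17), and the piRNA helicase spn-E. The count of lower members was 5 and 4 without libraries 2 and 1 labelled MSL3 RNAi, and 1 without bam RNAi 1.

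Several of the largest falls lay outside these lists. chinmo, a BTB zinc-finger transcription factor known from stem cells and the timing of neuron fates, was at 0.632 and 3.12 CPM in both libraries labelled MSL3 RNAi, 3.57 and 3.37 CPM in NC2b RNAi and 32.1 and 23.5 CPM in Set2 RNAi, against 270 and 183 CPM in bam RNAi. The Set2 RNAi libraries were above the other 4, and the F test among the knockdowns gave an edgeR adjusted p of 0.013. CG32814 was lower in all 3, with NC2b RNAi at 31.3 and 31.9 CPM above the other 4 libraries at 3.88 to 8.58 CPM, against 450 and 291 CPM in bam RNAi (edgeR adjusted p among the knockdowns 0.0051). Ant2, a mitochondrial ADP/ATP carrier, was at 0.833 to 7.58 CPM, against 77.6 and 120 CPM, and it overlaps its neighbour sesB. CG9411 was at 2.07 to 12.9 CPM, against 204 and 144 CPM.

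**Figure D4:**
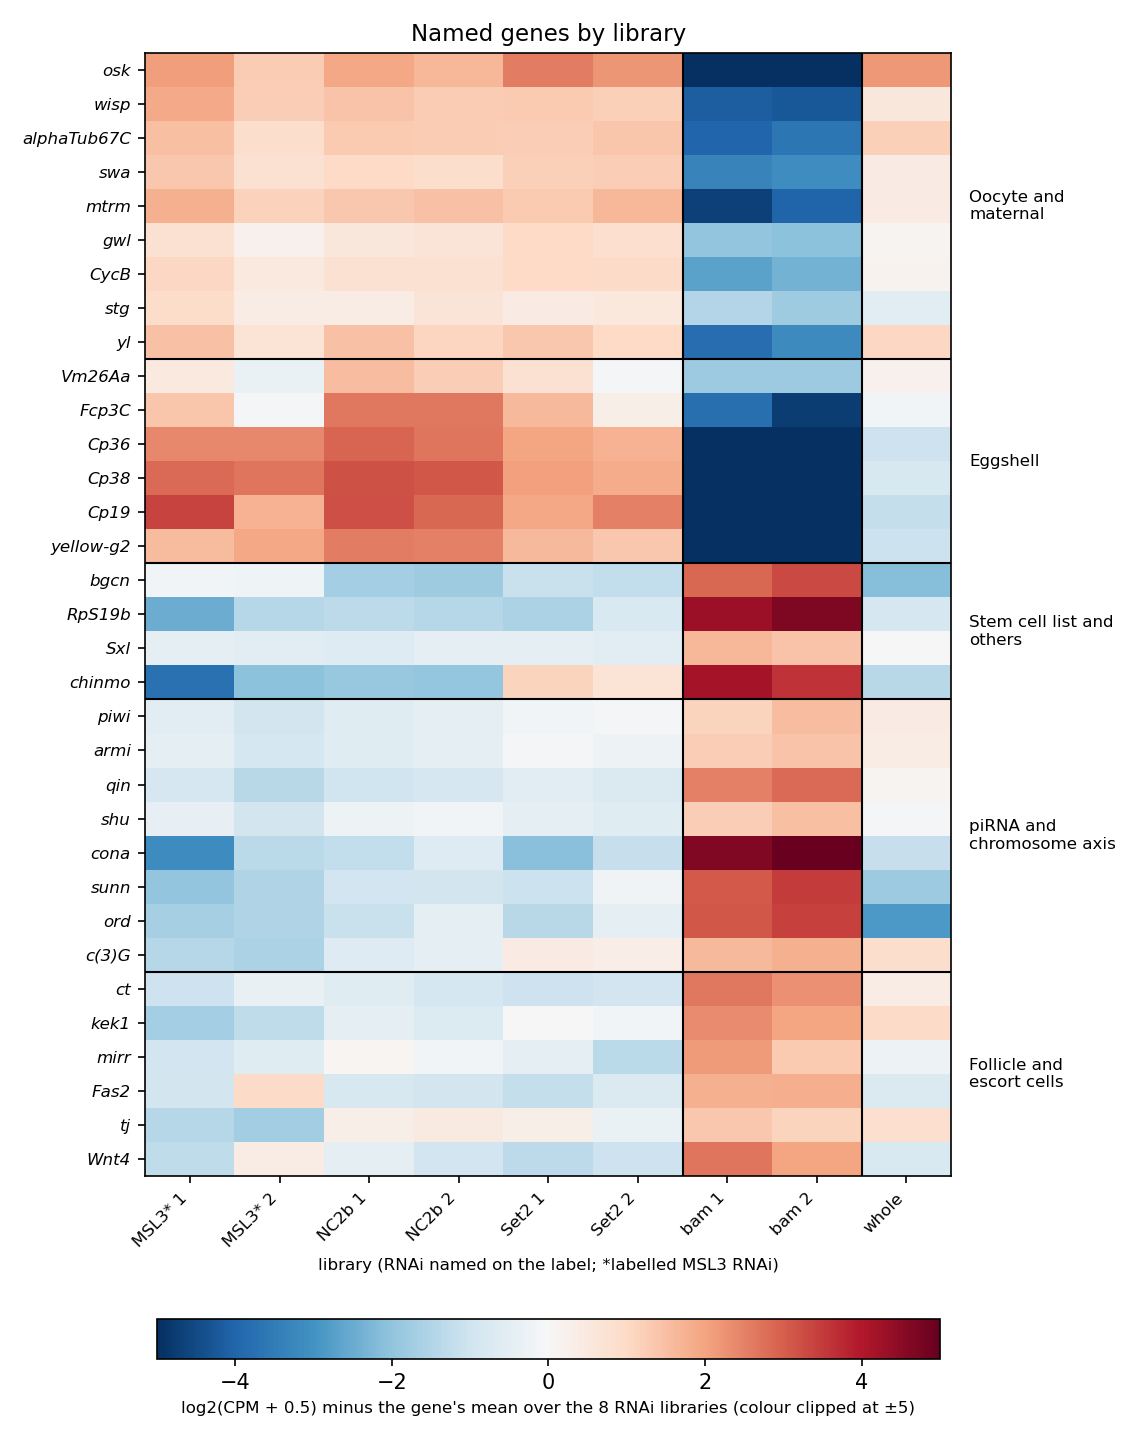
Colour gives log2(CPM + 0.5) of each gene in each library minus that gene's mean over the 8 RNAi libraries, clipped at 5 either way, with knockdown columns left of bam RNAi and whole ovaries. The upper genes are red or pale in the knockdown columns and blue in bam RNAi. Genes with smaller changes, such as Vm26Aa, gwl and stg, are pale in both. The lower groups are blue or pale in the knockdown columns and on the red side in bam RNAi. In the Set2 RNAi columns chinmo and c(3)G are pale red, on the same side as bam RNAi.

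The follicle, polar and border cell list had 8 of 23 tested members lower (34.8%) and 3 higher (13%), with a median of -0.41. The escort, cap and terminal filament list had 6 of 21 lower (28.6%) and 2 higher (9.52%), with a median of -1.29. Over all genes 9.24% agreed as lower and 14.7% as higher. The follicle list summed to 1956 to 3174 CPM in the knockdown libraries, against 3923 and 3555 CPM in bam RNAi. The escort list summed to 1108 to 1241 CPM in 5 knockdown libraries and to 2335 CPM in library 2 labelled MSL3 RNAi, against 2683 and 2172 CPM in bam RNAi, so that library lay between the bam RNAi values. ct, a transcription factor of mitotic follicle cells, was at 20.7 to 32.5 CPM, against 265 and 208 CPM in bam RNAi (log2 fold change -3.19, SE 0.19). kek1, an inhibitor of EGF receptor signalling, was at 16.1 and 21.5 CPM in both libraries labelled MSL3 RNAi, 37.2 and 32.3 CPM in NC2b RNAi and 51.8 and 48.3 CPM in Set2 RNAi, against 275 and 208 CPM in bam RNAi. Fas2, an adhesion protein lost from follicle cells as they mature, was at 97 to 132 CPM in 5 knockdown libraries and 427 CPM in library 2 labelled MSL3 RNAi, against 760 and 770 CPM. mirr, a patterning factor of the follicle cell layer, was at 8.01 to 22.5 CPM, against 93.3 and 52.7 CPM. Fas3, high in early follicle and polar cells, did not pass: it was at 113 to 738 CPM, against 461 and 511 CPM, with library 2 labelled MSL3 RNAi the highest.

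The rises of the follicle list included genes of later follicle cells. slbo, the C/EBP factor of border cells, was at 2.38 and 0.764 CPM in both libraries labelled MSL3 RNAi, 9.53 and 6.98 CPM in NC2b RNAi and 5.1 and 4.68 CPM in Set2 RNAi, against 0 and 0.156 CPM in bam RNAi. With 3 counts in bam RNAi its pooled ratio was 45.4 (exact 95% interval 15.5 to 221), and it was not called with the RpS19b mutant pair as control. peb, a zinc-finger factor of endocycling follicle cells, was at 54.3 to 112 CPM, against 42.4 and 35.6 CPM (log2 fold change 1.05), but -0.49 against the RpS19b mutant pair. Without Set2 RNAi 1 and 2, NC2b RNAi 1 and 2, and bam RNAi 1 and 2, the count of lower members was 3, 4, 3, 2, 2 and 5. The count of higher members was 1 without Set2 RNAi 1 or bam RNAi 2.

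Among genes of the germline's somatic niche, Wnt4, a ligand made by escort cells, was at 2.52 to 9.23 CPM, against 47 and 28.7 CPM in bam RNAi (log2 fold change -3.11, SE 0.41). tj, a Maf factor of escort and early follicle cells, was at 70 and 55.5 CPM in both libraries labelled MSL3 RNAi, 227 and 253 CPM in NC2b RNAi and 228 and 150 CPM in Set2 RNAi, against 480 and 408 CPM. The libraries labelled MSL3 RNAi were lowest, and the edgeR adjusted p among the knockdowns was 0.013. With the 6 libraries fitted as 1 group, tj lost its call. en, a marker of cap and terminal filament cells, was at 0 to 0.193 CPM in the knockdowns, against 0 and 0.156 CPM, near or under the limit that a count of 0 allows. The rises of the list were fz3, a Wnt receptor, which lost its call without either bam RNAi library, and H15, a T-box factor, at 1.69 to 3.84 CPM, against 0 and 0 CPM, at least 22.3-fold higher. Without Set2 RNAi 1 and 2, NC2b RNAi 1 and 2, and bam RNAi 1 and 2, the count of lower members was 3, 3, 2, 3, 0 and 3, and that of higher members was 1 in each case.

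The muscle sheath list had 0 of 20 tested members that agreed in either direction, against 24% over all genes. In the F test among the knockdowns 12 members differed, against 7.23% over all genes. In the mean comparison 3 passed as higher and 0 as lower, against 24% and 23% over all genes. Its summed level was 6786 and 19609 CPM in both libraries labelled MSL3 RNAi, 5985 and 7018 CPM in NC2b RNAi and 2826 and 2801 CPM in Set2 RNAi, against 5503 and 5191 CPM in bam RNAi and 1005 CPM in whole ovaries. Mhc, muscle myosin, was at 1014 and 2698 CPM, 796 and 792 CPM, and 216 and 230 CPM in these 3 pairs, against 613 and 687 CPM, with an edgeR adjusted p of 0.013 among the knockdowns and 0.66 for their mean. The fat body and hemocyte list summed to 9737 CPM in library 2 labelled MSL3 RNAi and to 1228 to 2674 CPM in the other 5 knockdown libraries, against 3540 and 3232 CPM in bam RNAi. In the RpS19b mutant pair this list summed to 5534 and 8619 CPM and the muscle sheath list to 11628 and 18908 CPM. Of the 18 tested members of the fat body and hemocyte list 3 agreed as higher (16.7%) and 2 as lower (11.1%), near the 14.7% and 9.24% over all genes. In the F test among the knockdowns 8 of the 18 differed, against 7.23% over all genes. The median log2 fold change of the list was 2.65 in the libraries labelled MSL3 RNAi, 1.20 in NC2b RNAi and -0.77 in Set2 RNAi. The members that agreed as higher were crq, Mtp and srp. The lower ones were vkg and Col4a1, the collagen IV chains, at 233 to 504 and 336 to 937 CPM. In bam RNAi vkg was at 1065 and 945 CPM and Col4a1 at 1765 and 1338 CPM. crq was not called with the RpS19b mutant pair as control. Without bam RNAi 2 the count of higher members was 1, without bam RNAi 1 that of lower members was 0, and it was 1 without Set2 RNAi 1 or 2, NC2b RNAi 1 or 2, bam RNAi 2 or library 1 labelled MSL3 RNAi. apolpp, the fat body apolipoprotein, was at 310 and 1589 CPM in both libraries labelled MSL3 RNAi, 651 and 366 CPM in NC2b RNAi and 58 and 24.7 CPM in Set2 RNAi, against 147 and 179 CPM.

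The gut and spermatheca list had 13 tested members, of which 1, peb, agreed as higher (7.69%, against 14.7% over all genes). Its summed level was 156 and 58.1 CPM in both libraries labelled MSL3 RNAi, 397 and 94.1 CPM in NC2b RNAi and 67.6 and 73.9 CPM in Set2 RNAi, against 43.1 and 38.5 CPM in bam RNAi and 111 CPM in whole ovaries. peb no longer agreed without Set2 RNAi 1, Set2 RNAi 2 or bam RNAi 2, and 2 members agreed without library 2 labelled MSL3 RNAi. The part of these other tissues in the differences among the knockdowns was not tested.

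**Figure D5:**
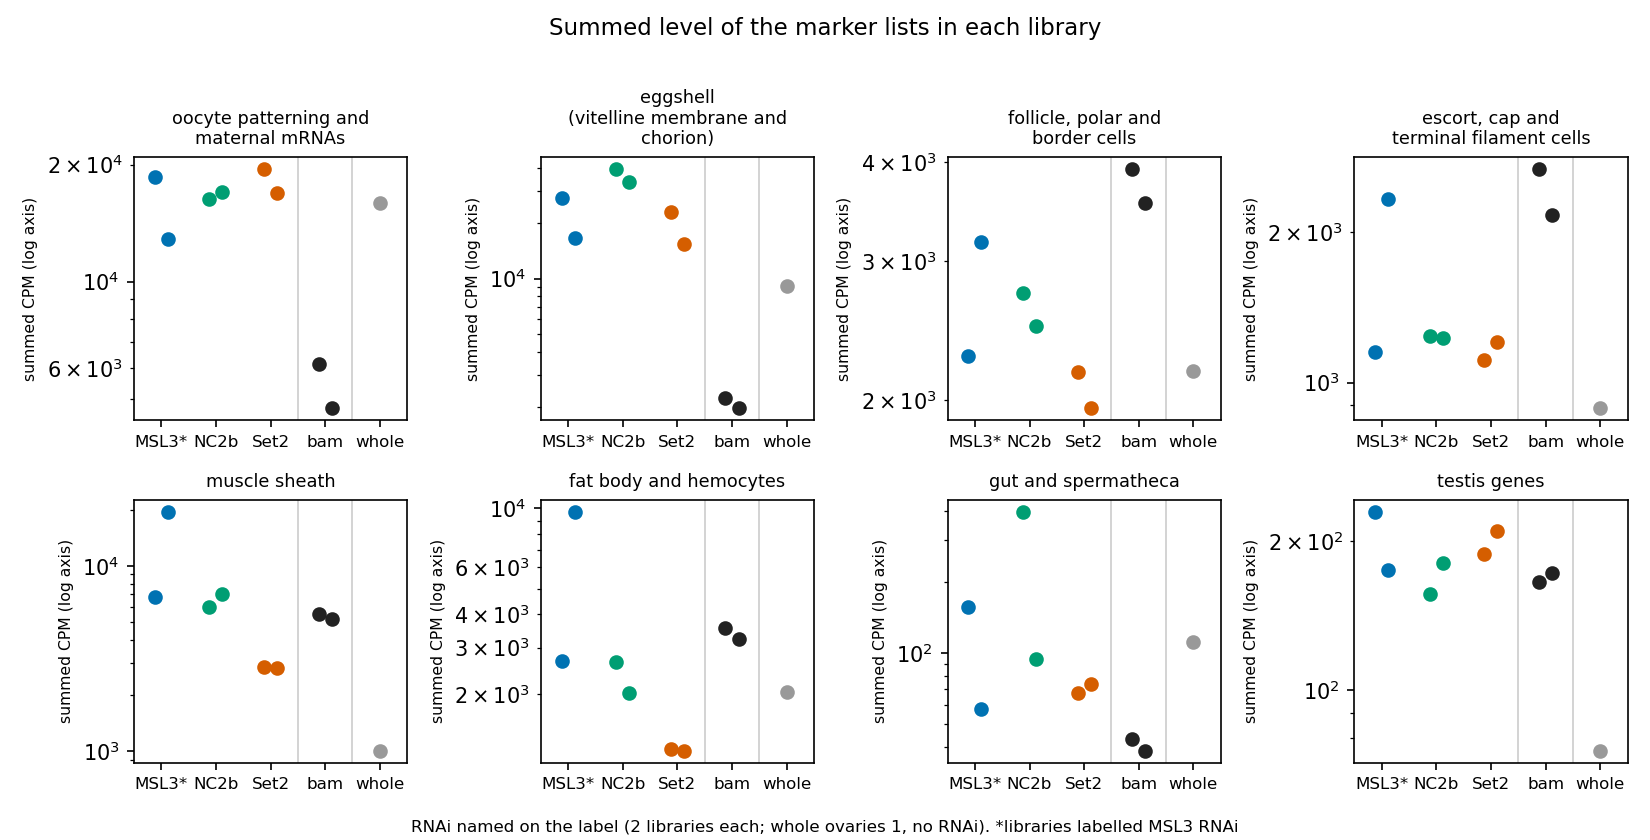
Summed CPM (log axes) of 8 marker lists in each library, knockdowns left of bam RNAi and whole ovaries; points are single libraries. The maternal and eggshell lists lie above bam RNAi in all 6 knockdown libraries. Library 2 labelled MSL3 RNAi is highest among the libraries drawn for muscle sheath (19609 CPM) and for fat body and hemocytes (9737 CPM). The RpS19b mutant pair, not drawn, had 11628 and 18908 CPM and 5534 and 8619 CPM for these lists.

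Of 20 tested members of the immune peptide list 7 agreed as higher (35%) and 0 as lower, and 13 did not agree. Over all genes 14.7% agreed as higher and 9.24% as lower. In the mean comparison 11 members were higher and 3 lower, against 24% and 23% over all genes. The list summed to 54.4 and 175 CPM in both libraries labelled MSL3 RNAi, 511 and 226 CPM in NC2b RNAi and 68.9 and 171 CPM in Set2 RNAi, against 26.5 and 20.5 CPM in bam RNAi and 10.5 CPM in whole ovaries. The RpS19b mutant pair had 71.2 and 223 CPM, within the range of the knockdowns. Def, the defensin gene, was at 9.96 to 35.4 CPM, against 0.837 and 0.882 CPM (log2 fold change 4.65, SE 0.53). AttA, an attacin, was at 4.71 to 56 CPM, against 0 and 0.0519 CPM, a ratio of 688 (exact 95% interval 123 to 27200). CecA1, a cecropin, was at 1.75 and 4.93 CPM in both libraries labelled MSL3 RNAi, 76.5 and 23.6 CPM in NC2b RNAi and 4.91 and 11.9 CPM in Set2 RNAi, against 0.418 and 0.623 CPM, and was not called by limma-voom. NC2b RNAi 1, the library with the highest level of these genes, also had the highest gut sum, and the part of either in the other was not tested. The count of agreeing members was 4 without library 2 labelled MSL3 RNAi, 3 without bam RNAi 1 and 2 without bam RNAi 2. Def was not called with the RpS19b mutant pair as control.

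Of 23 testis genes 11 were tested, and 5 of these agreed as lower (45.5%, against 9.24% over all genes). These were aly, topi and tomb, which encode parts of the testis form of a Myb-related complex, and mia and can, testis forms of TFIID subunits. None was above 24.4 CPM in the 8 libraries. topi was at 0.923 to 1.49 CPM, against 7.64 and 8.61 CPM in bam RNAi (log2 fold change -2.66, SE 0.40), tomb at 0.0574 to 0.174 CPM, against 2.2 and 5.71 CPM, and mia at 3.16 to 7.77 CPM, against 22.8 and 24.4 CPM. aly was at 3.1 and 3.31 CPM in both libraries labelled MSL3 RNAi, 0.265 and 0.0581 CPM in NC2b RNAi and 0.968 and 4.39 CPM in Set2 RNAi, against 15.4 and 17 CPM. can had 3 counts over the 6 knockdown libraries and 39 in bam RNAi, a pooled ratio of 0.0144 (exact 95% interval 0.00286 to 0.0454). tomb and can passed the filter on low counts only through bam RNAi, which set the direction in which they could be called. The gene that agreed as higher was twe, the meiotic Cdc25 used in both sexes, at 116 to 189 CPM, against 37.1 and 47.9 CPM (log2 fold change 1.81, SE 0.20). The summed level of the list, twe included, was 156 to 229 CPM in the knockdown libraries, against 165 and 172 CPM in bam RNAi. The count of lower members was 3 without Set2 RNAi 1 or 2, bam RNAi 1 or 2 or library 1 labelled MSL3 RNAi, and 1 and 2 without NC2b RNAi 1 and 2.

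Of 73 canonical cytoplasmic ribosomal protein genes 2 agreed as lower (2.74%) and 0 as higher, against 9.24% and 14.7% over all genes. In the mean comparison 33 of the 73 were lower and 1 higher, against 23% lower and 24% higher over all genes. The median log2 fold change was -0.40, with -0.84 in the libraries labelled MSL3 RNAi, -0.22 in NC2b RNAi and -0.15 in Set2 RNAi. Their summed level was 55098 and 62182 CPM in both libraries labelled MSL3 RNAi, 84276 and 87811 CPM in NC2b RNAi and 94503 and 95845 CPM in Set2 RNAi, against 108720 and 108720 CPM in bam RNAi (to 5 digits) and 183550 CPM in whole ovaries. All 6 knockdown sums lay below both bam RNAi sums. The RpS19b mutant pair summed to 92106 and 95171 CPM, within the range of the knockdowns. With that pair as control the median log2 fold change of the list was -0.21. The agreeing genes were RpS5a, which has a close paralog, at 466 to 954 CPM, against 1881 and 2177 CPM (log2 fold change -1.31, SE 0.20), and RpL35A, at 382 to 682 CPM, against 1177 and 968 CPM (-0.86, SE 0.15). The count of lower members was 8 without either library labelled MSL3 RNAi, 7 without bam RNAi 2, and 0 without Set2 RNAi 1 or 2, NC2b RNAi 1 or 2 or bam RNAi 1. Among 10 tested paralogs 3 agreed as lower, RpS19b, RpLP0-like and RpS14b, and 1 did so without Set2 RNAi 1 or 2, NC2b RNAi 1 or 2 or bam RNAi 1.

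Of 26 tested members of the list of MSL, H3K36, ATAC and NC2 regulators 4 agreed as higher (15.4%, near the 14.7% over all genes) and 5 as lower (19.2%, against 9.24% over all genes). ash1, a histone H3 methyltransferase of the Trithorax group, was at 159 to 329 CPM, against 82.3 and 76.4 CPM (log2 fold change 1.47, SE 0.18), and msl-1, the scaffold of the MSL complex, at 268 to 388 CPM, against 138 and 119 CPM (1.39, SE 0.19). mle, the RNA helicase of that complex, was at 66.9 to 89.1 CPM, against 166 and 166 CPM (-1.0, SE 0.13). mof, its histone acetyltransferase, was at 38.5 to 66.2 CPM, against 83.4 and 104 CPM (-0.90, SE 0.16), but 0.037 against the RpS19b mutant pair. The count of lower members was 1, 1, 2, 2, 1 and 2 without Set2 RNAi 1 and 2, NC2b RNAi 1 and 2, and bam RNAi 1 and 2. In the list of heterochromatin and H3K9 methylation genes 3 of 16 agreed as higher (18.8%) and 2 as lower (12.5%), near the shares over all genes. egg, the H3K9 methyltransferase of the germline, was at 77.1 to 101 CPM, against 186 and 214 CPM (-1.15, SE 0.12), and G9a, another H3K9 methyltransferase, at 408 to 674 CPM, against 216 and 204 CPM (1.43, SE 0.23). Without Set2 RNAi 2 the count of higher members was 1, and without any single library of Set2 RNAi, NC2b RNAi or bam RNAi that of lower members was 1.

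The remaining lists had small counts of agreeing members, to be read against 14.7% higher and 9.24% lower over all genes. Of 19 tested ecdysone genes 3 were higher (15.8%) and 2 lower (10.5%), near those shares. E23, an ABC transporter induced by ecdysone, was at 161 to 240 CPM, against 18.8 and 22.5 CPM (log2 fold change 3.23, SE 0.19), while Eip75B, an early-response nuclear receptor, was at 85.7 to 209 CPM, against 325 and 336 CPM (-1.21, SE 0.15). Of 16 tested junction and adhesion genes 2 were higher and 2 lower (12.5% each). The rise with the smallest p was Tl, the Toll receptor that is also a maternal product. It was at 510 to 747 CPM, against 63.3 and 96.5 CPM (2.96, SE 0.23). Of 19 tested heat shock and chaperone genes 2 were higher (10.5%) and 3 lower (15.8%). Hsp26 was at 1213 to 1707 CPM, against 421 and 463 CPM, and Hsp23 at 15.8 to 65.7 CPM, against 189 and 178 CPM. Oxidative phosphorylation had 4 of 44 higher (9.09%) and 3 lower (6.82%), and the nuclear pore 3 of 27 higher (11.1%). Ribosome biogenesis had 2 of 31 higher (6.45%) and 1 lower (3.23%), and insulin-TOR growth 2 of 16 higher and 2 lower (12.5% each). In the mean comparison 13 ribosome biogenesis genes were lower and 3 higher, against 23% and 24% over all genes. The F test among the knockdowns called 14 of the 31, against 7.23% over all genes. Their median log2 fold change was -0.79 in the libraries labelled MSL3 RNAi, -0.37 in NC2b RNAi and 0.059 in Set2 RNAi. The proteasome had 0 of 32 in either direction. In the mean comparison 4 of its members were higher and 2 lower, against 24% and 23% over all genes.

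These small counts moved with single libraries. For ecdysone, the higher members numbered 5 without library 2 labelled MSL3 RNAi and 1 without bam RNAi 2, and the lower members 0 without any single library of Set2 RNAi, NC2b RNAi or bam RNAi and 1 without library 2 labelled MSL3 RNAi. For junctions, the lower members numbered 5 without library 2 labelled MSL3 RNAi, 1 without Set2 RNAi 2 or bam RNAi 1, and 0 without Set2 RNAi 1, NC2b RNAi 1 or 2 or bam RNAi 2. For heat shock, 1 member was higher without Set2 RNAi 1, bam RNAi 1 or bam RNAi 2, and the lower members numbered 5 without library 2 labelled MSL3 RNAi, 1 without NC2b RNAi 1 or bam RNAi 2, and 0 without NC2b RNAi 2 or bam RNAi 1. For oxidative phosphorylation, the higher members numbered 0 without Set2 RNAi 1 or 2, NC2b RNAi 1 or bam RNAi 1, 1 without NC2b RNAi 2 and 2 without library 2 labelled MSL3 RNAi. The lower members numbered 0 without Set2 RNAi 1 or 2 or NC2b RNAi 1, and 1 without NC2b RNAi 2 or bam RNAi 1.

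For the nuclear pore, the higher members numbered 7 without library 2 labelled MSL3 RNAi, 5 without bam RNAi 2, 1 without Set2 RNAi 1 or 2 or NC2b RNAi 2, and 0 without NC2b RNAi 1 or bam RNAi 1, and 1 member was lower without library 1 labelled MSL3 RNAi. For ribosome biogenesis, 1 member was higher without Set2 RNAi 1 or 2, NC2b RNAi 1 or 2, bam RNAi 1 or library 1 labelled MSL3 RNAi, and the lower members numbered 2 without either library labelled MSL3 RNAi and 0 without any single library of Set2 RNAi or NC2b RNAi. For insulin-TOR growth, the lower members numbered 1 without either library labelled MSL3 RNAi or NC2b RNAi 2, and 0 without Set2 RNAi 1 or 2, NC2b RNAi 1 or bam RNAi 1. For the proteasome, 5 members were higher and 1 lower without bam RNAi 2.

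The F test among the 3 knockdowns called 718 of 9932 genes (7.23%), and of the 2382 agreeing genes 114 (4.79%) were called as well, 62 of the higher genes (4.23%) and 52 of the lower ones (5.66%). This count moved with single libraries. It was 2308 without library 1 and 1128 without library 2 labelled MSL3 RNAi, 163 and 176 without NC2b RNAi 1 and 2, 124 and 78 without Set2 RNAi 1 and 2, and 128 and 131 without bam RNAi 1 and 2. The agreeing genes with the smallest p in this test, named after their values were seen, were Cht10, a chitinase-family gene, and Six4, a homeodomain factor. Cht10 had log2 fold changes of 0.87, 3.18 and 4.65 in the libraries labelled MSL3 RNAi, in NC2b RNAi and in Set2 RNAi, and Six4 had -4.09, -1.63 and -1.29. bgcn was higher in the libraries labelled MSL3 RNAi than in the other 4 knockdown libraries, with an edgeR adjusted p of 0.013. The chorion genes Cp36 and Cp38 had an edgeR adjusted p of 0.040 and 0.047, with NC2b RNAi highest and Set2 RNAi lowest. Of the 57 genes called in opposite directions, Set2 is a targeted gene, and Hml, a hemocyte gene named after its values were seen, had log2 fold changes of 3.62, 0.58 and -2.17.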

How the data were processed

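Fragmentation of the poly(A) RNA took 13 minutes and the library kit was directional, per the labels' protocols; sequencing was on an Illumina NextSeq. What the authors deposited for each library is a table of raw counts for 17023 genes, 16646 of which have a symbol in Ensembl release 115 (BDGP 6.54), the source of gene places. HISAT2 2.1.0, featureCounts 1.6.0.4 and dm6 are named in the submitters' processing notes; strand setting and annotation release are not given there.

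Counts of the 8 libraries were fitted in edgeR 4.0.16 (R 4.3.3) with TMM scaling, low genes removed by filterByExpr (count 10, total 15), a means model of 4 groups and quasi-likelihood F tests on 4 residual degrees of freedom before moderation, with Benjamini-Hochberg adjustment at 0.05. The SE is the fold change over the root of F. CPM used library totals without TMM. Where a group held at most 3 counts, a bound or a ratio with an exact interval is printed. Such genes, where tested, passed the filter through the other side alone, which set the direction in which they could be called. Bounds and intervals cover counting error only.

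The members, the 28 gene lists (765 entries, 722 matched) and the rule for named genes were chosen with earlier results of these data known. The rule names the targeted genes, bam, bgcn and RpS19b; the 8 largest rises and falls among agreeing genes with a mean log2 CPM from 3 upward and no overlap between sides; up to 4 members of a list with the smallest p and 2 that moved against it; and defining cell type markers. Genes named outside it are marked in the text; stwl, brat and twin complete a count. Alternatives were DESeq2 1.42.0, limma-voom (limma 3.58.1), other scalings, filters, controls and fits, a replicate block and leaving out each library. Figures used matplotlib 3.10.9.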

Additional observations from a re-analysis of the deposited data

Results flagged for a closer look

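For 20 of the named genes the effect against bam RNAi differed among the 3 knockdowns by an F test over all genes (edgeR adjusted p in each case). Germ cell and meiotic genes among them were c(3)G (0.00493), bgcn (0.0126), png (0.00816), aly (0.0424) and the targeted gene Set2 (0.00493). Transcription factors were chinmo (0.0133), tj (0.0132), Six4 (0.00165) and Eip75B (0.0458). Eggshell genes were Cp36 (0.0402), Cp38 (0.047), yellow-g (0.0411) and yellow-g2 (0.0312), each highest in NC2b RNAi. The others were kek1 (0.0289), CG32814 (0.00515), Cht10 (0.000442) and CecA1 (0.0239).

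Mhc (0.0132), apolpp (0.0292) and Hml (0.00602), markers of muscle, fat body and hemocytes, were also in that set, and all 3 were lowest in Set2 RNAi. Their part in the other differences was not tested.

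The bam RNAi libraries with an RpS19b mutation, which enter no main comparison, held late ovarian transcripts above both bam RNAi libraries without it. osk was at 123 and 83.5 CPM, against 6.07 and 5.81 CPM in bam RNAi. Vm26Aa was at 1640 and 761 CPM, against 389 and 383 CPM. Yp1 was at 2665 and 1054 CPM, against 794 and 529 CPM. Cp36 was at 213 CPM in library 1 of that pair and 0.607 CPM in library 2, against 2.72 and 3.22 CPM in bam RNAi, so its level there is that of 1 library.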

How the results depend on the processing

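Scaling by library size or by DESeq2's size factors, DESeq2, limma-voom, no filter and the replicate block kept the main and agreeing counts within 1.5 times. A 2-fold minimum gave 1261 genes higher and 1450 lower for the mean, 1611, 1316 and 1135 higher for the libraries labelled MSL3 RNAi, NC2b RNAi and Set2 RNAi, and 831 higher and 604 lower that agreed. All 23 libraries in 1 fit, with a common dispersion of 0.399 in place of 0.0842, gave 225 and 405, 55 and 30, 19 and 3, 4 and 1, and 4 and 0 for these comparisons in turn, and 0 among the knockdowns, and 64 of 104 named genes lost their call. The count among the knockdowns was 2389 with no filter, 2026 by DESeq2, 328 by limma-voom, 258 with the RpS19b mutant pair as control and 114 with both bam RNAi pairs; the cause was not tested. With that mutant pair 1522 genes agreed as higher and 702 as lower, of which 1082 and 468 were also in the main counts. Of the 104 named genes, 14 kept their direction but lost their call with that pair, beside the reversed ones. Reversed log2 fold changes with it were apolpp -1.53, Hml -1.83, Mhc -1.34, mof 0.037, peb -0.49 and Yp1 -0.14, and with both pairs apolpp -0.78, Hml -1.06 and Mhc -0.77. Leaving out 1 library gave 1690 to 2791 higher and 1336 to 2805 lower for the mean, 1694 to 2708 and 1220 to 1849 for the libraries labelled MSL3 RNAi, 1184 to 2686 and 469 to 2058 for NC2b RNAi, 1190 to 2493 and 576 to 2162 for Set2 RNAi, 1017 to 1770 and 383 to 1129 that agreed, and 78 to 2308 among the knockdowns. Mhc ranged from -0.086 to 0.40 in these fits. Library size alone moved the median of all genes to -0.091. Differences between libraries 2 and 1 of a group correlated across genes with those of other groups at -0.0876 to 0.0994. A weak or group-specific effect of a shared dissection cannot be seen this way, so pairing by number stays unknown. The replicate block gave 1390 higher and 795 lower that agreed, 2316 and 2129 for the mean, and 707 among the knockdowns. The lowest depth, 9559023 counts in bam RNAi 1, limits folds of genes near 0 there.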
